A study of Mus musculus with 6 samples.

Results

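Expression of 10 genes of the cerebellar cortex was followed on 6 Affymetrix arrays of neonatal mouse brain. Purkinje neurons are represented by Pcp2, Calb1 and Car8, and the granule cell lineage by Atoh1, Barhl1, Zic1, Zic2, Neurod1, Cbln1 and En2. The genes were chosen partly on values of these same arrays, since lower male values of cerebellar genes, among them Pcp2, Zic2, Neurod1 and En2, were already known. The difference between the sexes is therefore given as a description without a test. All of their probe sets that the array annotation pairs with 1 gene were used. The 10 genes, of 18193 measured, had 22 of 34945 such probe sets, 10 for the Purkinje genes and 12 for the granule lineage genes.

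All mice were C57BL/6 neonates and every brain was taken whole on postnatal day 6. Treated mice had received testosterone propionate (TP, an ester of testosterone), 1 mg in 20 uL of sesame oil injected into the peritoneum on postnatal day 2. Vehicle mice had received the oil alone. Females had 2 arrays with TP and 2 with vehicle, and males had 1 of each. The RNA of 6 mice was pooled for every array. In females, 1 array per treatment is labelled a replica, with no word on whether its mice were others. The p-values, standard errors (SE) and intervals below may therefore rest on technical spread alone. Values are deposited log2 expression values, and a difference of 1 is a doubling.

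The cerebellar cortex forms mostly after birth in the mouse. Purkinje cells, the output neurons of the cortex, settle early and secrete Sonic hedgehog, which drives the proliferation of granule cell precursors at the cerebellar surface. These precursors express the transcription factor Atoh1, lose it as they leave the cell cycle, turn on differentiation genes such as Neurod1 and migrate inward to form parallel fibre synapses on the Purkinje cells.

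The labels and the composition of the samples were checked first. The Y-linked gene Eif2s3y stood between 2.84 and 3.09 on the female arrays, at 9.16 in males with vehicle and at 9.12 with TP. Xist, the RNA that coats the inactive X chromosome of females, stood between 12.61 and 12.83 on the female arrays, at 5.29 in males with vehicle and at 10.45 in the library labelled male TP, whose Xist value thus goes against that label while its Y-linked value does not. The Xist value lies between that of males with vehicle and those of females, and whether the pool held RNA of male mice alone was not tested, so every value called male TP below is that of a library with this label. Kdm5d and Uty, also Y-linked, stood at 7.17 and 4.84 in males with vehicle and at 6.80 and 5.54 with TP, against at most 2.69 in females. Eif2s3x and Kdm5c, which escape X inactivation, were lower in both male arrays than in every female array. The male TP array had Gh, the growth hormone of the pituitary, at 8.55, against 5.37 to 5.75 on the other arrays. Counts of lower male values, and sex differences of the classes, members and list medians, are given with and without it. So is the comparison over both sexes, for the count of members called, Atoh1 and Pcp2. For genes outside the members, single values over both male arrays or both sexes include it. The male TP difference and its test against the female one cannot be had without the male TP array. The correlations at the end were taken with it alone included, not without it. The neuronal genes Tubb3 and Snap25 lay between 12.12 and 12.45 on every array, as in brain tissue. Of 2 genes of more mature granule cells, looked up outside the rule for named genes, Cbln3 stood between 4.88 and 4.97 and Gabra6 between 4.36 and 4.87, below the 40th percentile of all probe sets at 5.49. In whole brain, fewer cells of a type and less RNA per cell cannot be told apart.

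The promoters of 4 members are shown because the transcription factors among the members bind DNA near genes of this lineage. Atoh1 and Neurod1 belong to the basic helix-loop-helix family, which recognises the E-box CANNTG. Each sequence is the 250 bases before the annotated start of the gene, 5′ to 3′ on the strand of the gene, from RefSeq on GRCm38.p6, with E-boxes in capitals. The windows lie at chr8:3625548-3625797 on the minus strand for Pcp2, at chr6:64728875-64729124 on the plus strand for Atoh1, at chr2:79456637-79456886 on the minus strand for Neurod1 and at chr9:91365769-91366018 on the minus strand for Zic1.
Pcp2: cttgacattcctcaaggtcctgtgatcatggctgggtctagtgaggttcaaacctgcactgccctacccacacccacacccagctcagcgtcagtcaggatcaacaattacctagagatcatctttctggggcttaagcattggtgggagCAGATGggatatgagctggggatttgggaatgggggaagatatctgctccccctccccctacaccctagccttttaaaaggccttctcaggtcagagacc
Atoh1: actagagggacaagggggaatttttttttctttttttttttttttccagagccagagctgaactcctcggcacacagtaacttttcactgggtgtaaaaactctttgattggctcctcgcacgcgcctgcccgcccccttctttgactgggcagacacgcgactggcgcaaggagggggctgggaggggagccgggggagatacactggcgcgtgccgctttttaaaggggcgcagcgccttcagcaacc
Neurod1: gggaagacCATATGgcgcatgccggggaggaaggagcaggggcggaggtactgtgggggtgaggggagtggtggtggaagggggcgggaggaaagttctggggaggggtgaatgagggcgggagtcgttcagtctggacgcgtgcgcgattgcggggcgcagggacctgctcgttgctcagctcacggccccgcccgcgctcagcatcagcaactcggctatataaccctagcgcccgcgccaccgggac
Zic1: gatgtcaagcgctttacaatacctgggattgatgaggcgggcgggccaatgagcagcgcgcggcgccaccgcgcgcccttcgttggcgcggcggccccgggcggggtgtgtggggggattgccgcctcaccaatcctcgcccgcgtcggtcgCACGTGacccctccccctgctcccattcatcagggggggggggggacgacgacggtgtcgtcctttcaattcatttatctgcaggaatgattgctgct
The window of Pcp2 held 1 E-box, of the form CAGATG, 100 bases before the start. That of Neurod1 held CATATG at 242 bases and that of Zic1 held CACGTG at 98 bases. The window of Atoh1 held 0 matches to CANNTG. The E-box reads the same on both strands by its fixed letters, and 66.2% of 32851 RefSeq windows of this length held at least 1. The form CAGATG, searched on both strands and contained in CANNTG, was in 14.4% of them. The GC box GGGCGG, also on both strands, matched 4 times before Neurod1, 2 times before Zic1, 1 time before Atoh1 and 0 times before Pcp2, and was in 32.7% of all windows. TATAAA, in 12.4% of windows on either strand, matched in 0 of these 4, and the CCAAT box, in 33.8% of windows on either strand, matched before Pcp2, Atoh1 and Zic1. The windows shown end at the edge of the annotated gene, and those at starts inside a gene are not shown. Of the latter, each of Barhl1 held 1 E-box of the form CAGCTG, which was in 13.0% of all windows. Those of Pcp2 also held E-boxes, and 1 of them held TATAAA. All these matches describe letters and were not tested against expression.

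The first question was whether TP changed either class of cerebellar gene in females. No member passed the threshold (limma, adjusted p under 0.05 over 34945 probe sets): 0 of the 22 probe sets were called, where 0.00572% of all probe sets were. At an unadjusted p under 0.05 there was 1 of 22, Atoh1, against 7.83% of all probe sets. Both TP arrays lay below both vehicle arrays for 7 of the 22 (2 of 10 Purkinje, 5 of 12 granule lineage), against 22.5% of all probe sets, and above them for 0 of 22, against 16.0%.

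Pcp2, a modulator of G protein signalling found in Purkinje cells and retinal bipolar cells, gave nearly the same values with and without TP in females on its brighter probe sets. Its brightest probe set (1419085_at) stood at 9.54 and 9.42 on the vehicle arrays and at 9.55 and 9.33 on the TP arrays. The means were 9.48 ± 0.09 with vehicle and 9.44 ± 0.15 with TP (SD, n = 2 each). The groups overlapped, and the difference was -0.04 (SE 0.10, 95% interval -0.28 to 0.21, limma adjusted p = 0.955). Its second probe set (1419084_a_at) stood at 7.20 and 7.33 with vehicle and at 7.24 and 7.27 with TP, again overlapping. A dim probe set of the gene (1424944_at) stood at 3.94 and 4.03 with vehicle and at 3.91 and 3.64 with TP. Here both TP arrays lay below both vehicle arrays, with a difference of -0.21.

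Calb1 encodes the calcium buffer calbindin, which fills Purkinje cells but is also made by many other neurons of the brain. The brightest of its 4 probe sets (1417504_at) stood at 10.86 and 11.01 with vehicle and at 10.90 and 10.94 with TP, so that the TP values lay within the range of the vehicle values. The difference was -0.01 (95% interval -0.22 to 0.19). Car8, a carbonic anhydrase relative without enzyme activity that binds the inositol trisphosphate receptor of Purkinje cells, stood at 10.20 and 10.32 with vehicle and at 10.31 and 10.16 with TP (1427482_a_at). These groups overlapped too, with a difference of -0.02 (95% interval -0.24 to 0.20). Another probe set of Car8 (1457904_at) differed by -0.11, with both TP arrays below both vehicle arrays. The dimmest (1424958_at) differed by -0.19, and its groups overlapped. Over the 10 Purkinje probe sets the differences ran from -0.21 to 0.04, and 9 were negative, where 55.5% of all probe sets were.

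Atoh1, which specifies granule cell precursors and keeps them dividing, gave the largest difference of any member. It stood at 6.07 and 6.02 on the female vehicle arrays and at 5.82 and 5.55 on the female TP arrays (1449822_at, its single probe set). Both TP arrays were below both vehicle arrays, by more in TP array 2, and the means were 6.04 ± 0.03 and 5.68 ± 0.19 (SD, n = 2 each). The difference was -0.36 (SE 0.11, 95% interval -0.62 to -0.10), or 1.28-fold lower, and did not pass (limma adjusted p = 0.582). Without TP array 2 it was -0.23, without TP array 1 -0.50, and adjusted p ranged from 0.360 to 1.00 over the alternatives. The level of Atoh1 lay little above the dim threshold.

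Barhl1, a homeobox gene that acts downstream of Atoh1 in the same precursors, also had both TP arrays below both vehicle arrays on each of its 2 probe sets. The brighter one (1418812_a_at) stood at 6.13 and 5.94 with vehicle and at 5.82 and 5.88 with TP, a difference of -0.19 (SE 0.09, adjusted p = 0.673), which was -0.09 without vehicle array 1 and -0.28 without vehicle array 2. The other (1418811_at) stood at 5.91 and 5.50 with vehicle and at 5.44 and 5.28 with TP, a difference of -0.34 (SE 0.14, adjusted p = 0.637). On this probe set the vehicle arrays themselves lay far apart, and its mean over the 6 arrays, 5.51, lay little above the dim threshold of 5.49.

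Genes of later steps or of the whole lineage gave smaller values. Neurod1, needed for granule cells to differentiate and survive, stood at 11.34 and 11.21 with vehicle and at 11.38 and 11.24 with TP (1426413_at), a difference of 0.04 (95% interval -0.18 to 0.26). Its other probe set (1426412_at) differed by -0.09, with both TP arrays below both vehicle arrays by a narrow margin, 10.21 against 10.25. Zic1 and Zic2, zinc finger factors that granule precursors and neurons express along with cells of the dorsal midline and meninges, overlapped between groups. Zic1 stood at 12.12 and 12.17 with vehicle and at 12.18 and 12.13 with TP (1423477_at, difference 0.01, 95% interval -0.17 to 0.20). The other probe set of Zic1 (1439627_at) stood at 10.84 and 11.01 with vehicle and at 11.16 and 10.97 with TP. Its difference was 0.14 (95% interval -0.10 to 0.39). Zic2, on 1 dim probe set (1421301_at), stood at 4.61 and 4.70 with vehicle and at 4.68 and 4.69 with TP (difference 0.03, 95% interval -0.16 to 0.22).

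Cbln1, which granule cells secrete to build their synapses on Purkinje cells, stood at 10.41 and 10.52 with vehicle and at 10.42 and 10.49 with TP (1423287_at). Its difference was -0.01 (95% interval -0.22 to 0.19), and its other probe sets differed by -0.09 and 0.05. En2, a homeobox gene of the midbrain and cerebellum that is not limited to granule cells, stood at 7.13 and 7.10 with vehicle and at 7.12 and 7.15 with TP (difference 0.02, 95% interval -0.16 to 0.20). The intervals carry the same spread between arrays as the p-values, which may be technical alone. They do not show that the groups were alike.

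**Figure D1:**
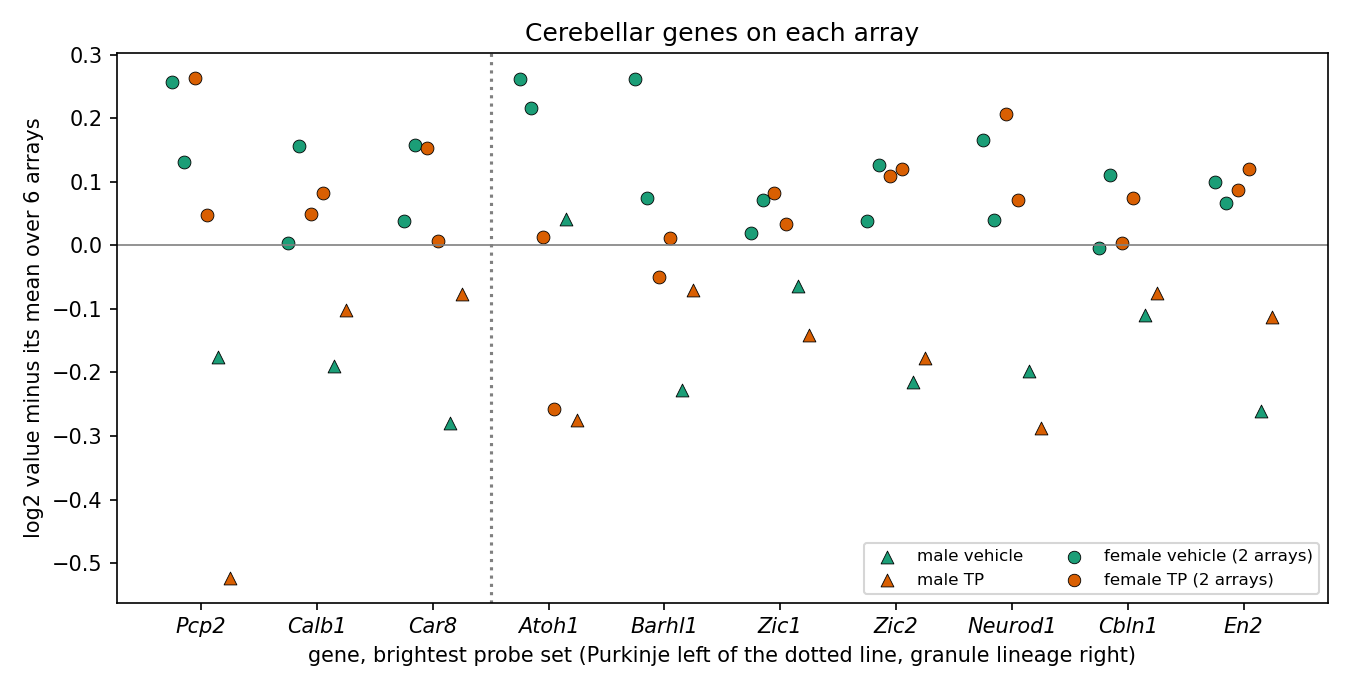
The brightest probe set of each gene on each of the 6 arrays, as its log2 value minus its mean over the arrays (circles female, triangles male, green vehicle, orange TP). Atoh1 is the gene whose 3 TP arrays all lie below its 3 vehicle arrays, and for the other 9 genes both male arrays lie below all 4 female arrays.

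The male arrays gave a comparison of 1 TP with 1 vehicle array, with no replicate check and no test. Pcp2 was at 9.11 with vehicle and at 8.76 with TP on its brightest probe set, a difference of -0.35, and its second probe set had 7.08 and 6.73, also -0.35. Its dim probe set had 3.64 and 3.68, a difference of 0.04. Car8 had 9.88 with vehicle and 10.08 with TP, a difference of 0.20, on its brightest probe set, and 0.03 and -0.0098 on its others. The brightest probe set of Calb1 had 10.66 and 10.75, a difference of 0.09. The brightest probe sets of the Purkinje genes thus did not share a direction in males. The 3 other probe sets of Calb1 had -0.27, -0.18 and -0.33, the last on the dim 1458836_at. Over all members 12 of 22 probe sets were lower with TP in males, against 56.1% of all probe sets.

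Among the granule lineage genes in males, Atoh1 was at 5.85 with vehicle and at 5.53 with TP, a difference of -0.32. The 2 probe sets of Barhl1 differed in sign, at 0.16 for the brighter and -0.27 for the other. Differences on the brightest probe sets were -0.09 for Neurod1, -0.08 for Zic1, 0.04 for Zic2, 0.03 for Cbln1 and 0.15 for En2. At a difference of 0.25 or more, 6 of the 22 probe sets were lower with TP, against 9.17% of all probe sets, and 0 were higher, against 6.95%. These 6 were 2 of Pcp2, Atoh1, the dimmer one of Barhl1 and 2 of Calb1, among them the dim 1458836_at. All of these values rest on the male TP array, whose Xist and Gh values are given above. Their part in the result was not tested.

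**Figure D2:**
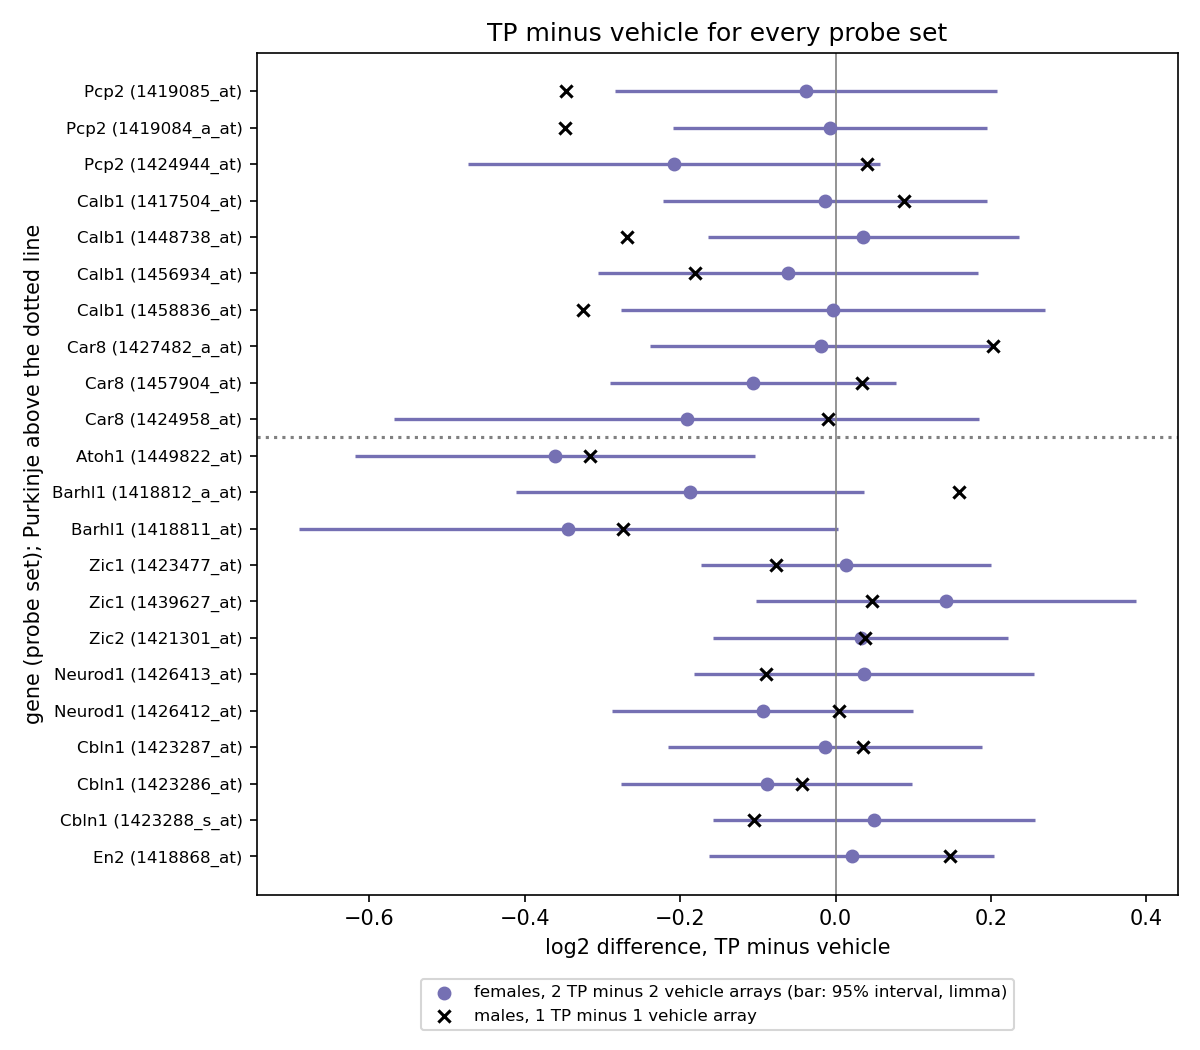
TP minus vehicle on the log2 scale for all 22 probe sets, with the female difference as a dot with its 95% interval and the male difference as a cross. The female interval of Atoh1, from -0.62 to -0.10, is the one that does not reach 0, and the crosses of Pcp2 on its brighter probe sets lie at -0.35, to the left of the female intervals.

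Whether the TP effect differed between the sexes was tested with 4 groups in 1 model, which takes the spread of the female pairs for the males as well. No member passed (0 of 22, against 0.02% of all probe sets by limma, and 0 of 22 at an unadjusted p under 0.05, against 4.84%). For Pcp2 the female effect minus the male effect was 0.31 (SE 0.18) on the brightest and 0.34 (SE 0.15) on the second probe set, with an unadjusted limma p of 0.128 and 0.0550. For Atoh1 it was -0.05 (SE 0.19, 95% interval -0.49 to 0.40).

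Over both sexes together, adjusting for sex, 0 of 22 probe sets passed, where 0.0% of all probe sets did, and 2 of 22 had an unadjusted limma p under 0.05, against 12.3%. This comparison shares its female arrays with the one above, and its values are given beside them, not as further support. Atoh1 had a difference of -0.35 (SE 0.08, adjusted p = 0.300), while Barhl1 had -0.07 (SE 0.09, adjusted p = 0.784) on the brighter and -0.32 (SE 0.11, adjusted p = 0.355) on the dimmer probe set. Atoh1 and the latter are the 2 probe sets whose 3 TP arrays all lay below the 3 vehicle arrays, as for 9.12% of all probe sets, and 0 lay above, against 6.01%. Without the male TP array the comparison rests on the females alone, and Atoh1 had -0.36 (adjusted p = 0.582). Pcp2 had -0.14 (SE 0.09) with that array and -0.04 without it.

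Purkinje genes were then set against granule lineage genes within each array, as the mean over genes of the centred log2 value of the brightest probe set. The Purkinje mean was 0.10 and 0.15 on the female vehicle arrays, 0.15 and 0.05 on the female TP arrays, and -0.21 with vehicle and -0.23 with TP in males. The granule lineage mean was 0.12 and 0.10 with vehicle and 0.06 and 0.03 with TP in females, and -0.15 and -0.16 in males. Both classes were thus lower in both male arrays, and the female groups separated for the granule lineage mean but not for the Purkinje mean. In females, TP minus vehicle was -0.02 for the Purkinje mean and -0.07 for the granule lineage mean. With the probe sets of each gene averaged, these differences were -0.07 and -0.08, and the first minus the second was 0.01.

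The Purkinje mean minus the granule lineage mean was -0.02 and 0.05 on the female vehicle arrays and 0.09 and 0.02 on the female TP arrays, so that the groups overlapped. TP minus vehicle was 0.04 in females, less than the pooled SD of 0.05 within the female pairs. In males it was -0.0038. The female granule lineage difference of -0.07 came to -0.01 as a median over genes, since Atoh1 and Barhl1 were low while Zic1, Zic2, Neurod1 and En2 had small positive values. These means over chosen genes were not tested.

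**Figure D3:**
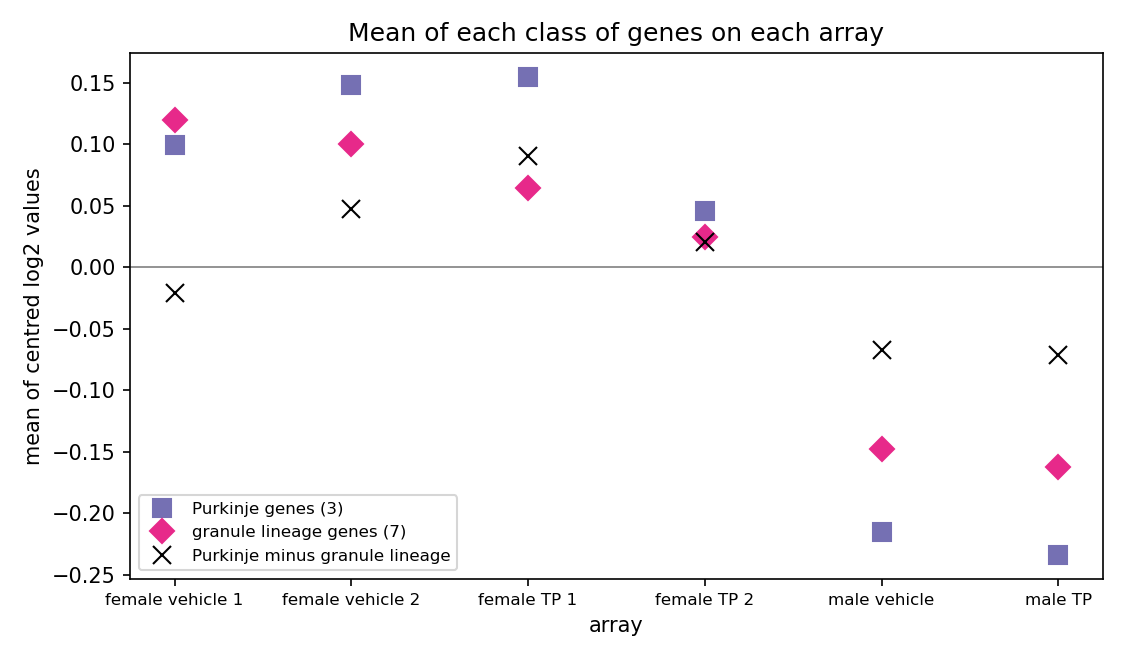
Mean of the centred log2 values of 3 Purkinje genes (squares) and 7 granule lineage genes (diamonds) on each array, and the first minus the second (crosses). Squares and diamonds lie above 0 on the 4 female arrays and below 0 on both male arrays, with rounded values from -0.23 to -0.15, while the crosses stay between -0.07 and 0.09.

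The sex difference, known when the genes were chosen, is described here without a test. Both male arrays lay below all 4 female arrays for 16 of the 22 probe sets, 6 of 10 Purkinje and 10 of 12 granule lineage, against 12.5% of all probe sets, and nothing is read from this. The male vehicle array by itself lay below all 4 female arrays for 17 of 22, against 25.1%. Averaged over treatments, male minus female was -0.34 for the Purkinje mean and -0.23 for the granule lineage mean. It was -0.34 and -0.26 on vehicle arrays alone, without the male TP array. The values of single genes ran from -0.52 for Pcp2 (9.11 and 8.76 in males, 9.33 to 9.55 in females) to -0.14 for Cbln1 (10.30 and 10.34 in males, 10.41 to 10.52 in females). Between these were Neurod1 at -0.36, Zic2 at -0.29, En2 at -0.28, Car8 at -0.27, Barhl1 and Calb1 at -0.22, Atoh1 at -0.18 and Zic1 at -0.15. The order changed on vehicle arrays alone, with Barhl1 at -0.40, Car8 at -0.38, Pcp2 at -0.37 and En2 at -0.34. There Neurod1 and Zic2 had -0.30, Calb1 -0.27, Atoh1 -0.20, Cbln1 -0.16 and Zic1 -0.11.

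Atoh1 did not have both male arrays below all female arrays, as the male vehicle array at 5.85 lay above both female TP arrays. The lower male values were not shared by every probe set of a gene. For Calb1 the brightest probe set and 1456934_at had both male arrays below all female arrays. The probe set 1448738_at of Calb1 stood at 6.64 in the male vehicle array, above the female range of 6.42 to 6.55, and at 6.37 in the male TP array, below it.

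Other genes of the same cells came from lists drawn up with earlier results of these arrays known. Their median male minus female was -0.03 for Purkinje and -0.12 for granule lineage genes, against -0.01 over all probe sets. On vehicle arrays alone these medians were -0.05, -0.07 and -0.01. Medians of the members' probe sets were -0.22 and -0.23, and -0.25 and -0.22 on vehicle arrays alone. The members were chosen partly on lower male values, so nothing is read from this gap. Of 40 probe sets of 14 other Purkinje genes, 0 passed in any TP comparison, with a median female TP difference of -0.03 against -0.02 over all probe sets. Both males lay below all females for 8 of the 40, and the male vehicle array by itself for 16, where 12.5% and 25.1% of all probe sets did. Pcp4, a calmodulin-binding peptide, had male minus female of -0.09, the nuclear receptor gene Rora 0.03, and the homeobox genes Lhx1 and Lhx5 -0.27 and -0.11. Lhx1 and Lhx5 had female TP differences of -0.21 (limma adjusted p = 0.614) and -0.19 (limma adjusted p = 0.653).

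Of 60 probe sets of 23 other granule lineage genes, again 0 passed with TP, the median female difference was 0.0026, both males lay below all females for 20, and the male vehicle array by itself for 24, against the same 12.5% and 25.1%. Pax6, a transcription factor of granule precursors, stood at 8.39 and 8.38 with vehicle and 8.33 and 8.37 with TP in females, and both male arrays lay lower (8.05 with vehicle). Male minus female was -0.35 for Pax6, -0.24 for Zic4, -0.20 for Zic5 and -0.06 for the dim Barhl2. Of 26 probe sets of 12 genes of other cerebellar cells (inhibitory interneurons, Bergmann glia, rhombic lip), 0 passed with TP, both males lay below all females for 4, and the male vehicle array by itself for 6, near those shares. Ptf1a, which specifies the inhibitory neurons, had male minus female of -0.35, Lhx9, of the cerebellar nuclei, 0.04, and the roof plate genes Lmx1a and Lmx1b 0.10 and -0.01.

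Lists of other cells and regions are given beside these results. Genes of cycling cells, such as Mki67 and Top2a, had both males below all females at 24 of 43 probe sets, against 12.5% of all, and the male vehicle array by itself at 26, against 25.1%. Their centred mean lay between 0.05 and 0.10 on the female arrays and in males at -0.10 with vehicle and -0.19 with TP. Mki67 stood between 8.67 and 8.76 in females and at 8.46 and 8.47 in males, while Top2a overlapped, at 8.44 to 8.68 in females and 8.51 and 8.43 in males. Forebrain genes had both males below all females at 2 of 25 probe sets and hindbrain and spinal cord genes at 3 of 33, with the male vehicle array by itself at 5 and 7. Beside the lower Atoh1 and Barhl1 values with TP, which did not pass, hindbrain and spinal cord genes had negative female differences at 25 of 33 probe sets (median -0.14), where 55.5% of all probe sets were negative (median -0.02), with centred means of 0.11 and 0.13 with vehicle and -0.10 and -0.0073 with TP in females, and 0.08 and -0.22 in males. Midbrain and isthmus genes had negative ones at 17 of 20 (median -0.12), with En1, a close relative of En2, dim and at -0.13 and Pax3 at -0.16. In the hindbrain list Hoxa2 and Hoxa3, both dim, had -0.26 and 0.10. Genes of meninges and bone, tissues that can adhere to a dissected brain, stood at 0.33 on both female TP arrays, at -0.13 and -0.07 with vehicle, and in males at -0.05 with vehicle and -0.41 with TP. Of 21 probe sets in that list 1 was called in females, for the bone matrix gene Ibsp, named after its value was seen, which rose by 1.64 (limma adjusted p = 0.0354). That call was lost with any of the 4 female arrays left out, and Col1a1 and Col1a2 had 0.07 and 0.10. The part of these lists in the results was not tested.

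**Figure D4:**
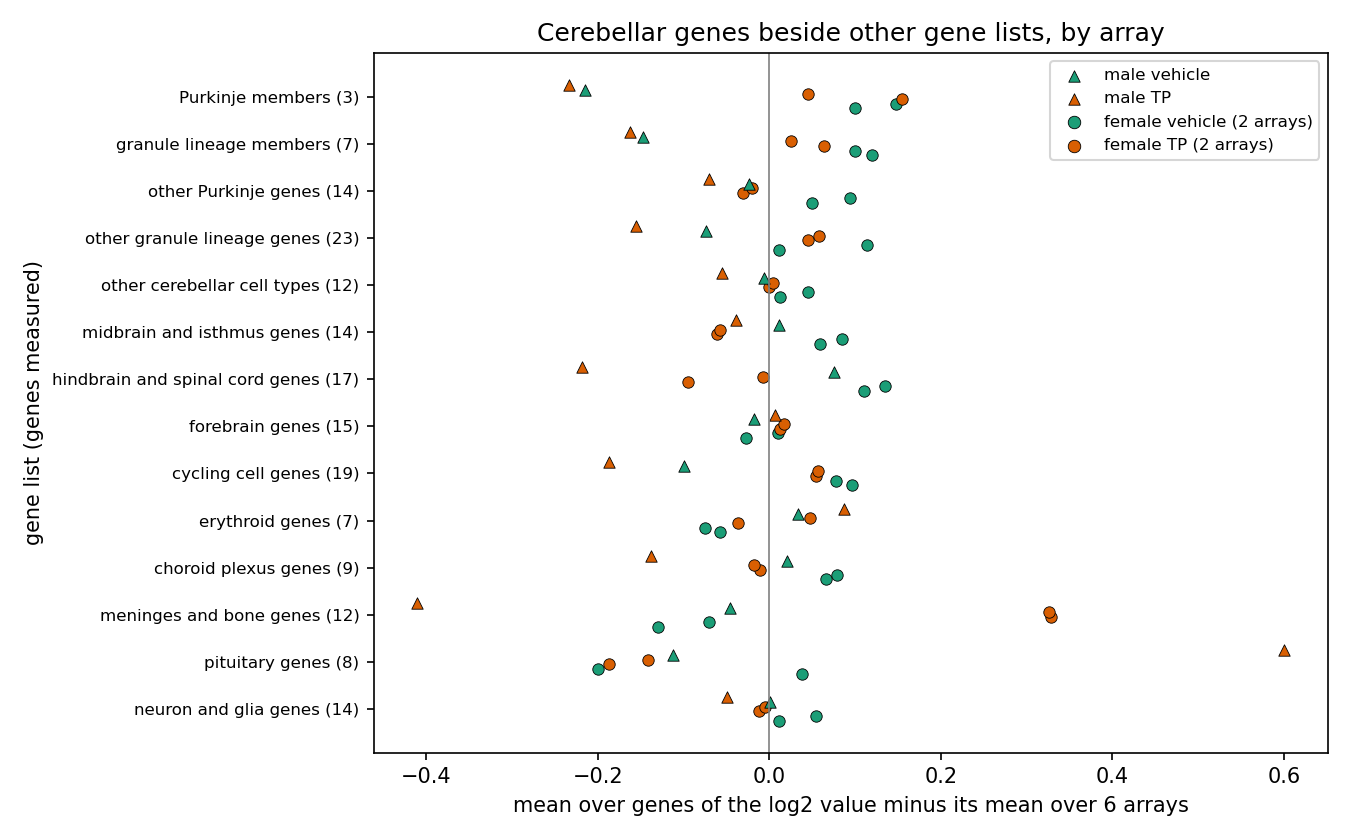
Mean centred log2 value of each gene list on each array, 1 brightest probe set a gene (circles female, triangles male, green vehicle, orange TP). Cycling cell genes (-0.10 and -0.19) and other granule lineage genes (-0.07 and -0.16) share with the cerebellar members the low values in both males. Forebrain genes stay near 0 on every array, and the male TP array stands apart for pituitary genes at 0.60 and for meninges and bone genes at -0.41.

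Genes whose values followed the members most closely over the 6 arrays were named by Pearson correlation among 3897 genes that were bright and variable enough. This is a description over 6 arrays that fall into males and females, and every gene named shares the lower male values. For Pcp2 they were Cnppd1 (r = 0.989), Tanc1 (0.988), Nek3 (0.983), Tap2 (0.982) and Cpt2 (0.981). For the granule lineage mean they were Ifitm2 (r = 0.990), the X-linked demethylase gene Kdm5c (0.987), Hddc3 and the mitotic cyclin gene Ccnb2 (0.984) and Dph7 (0.982). All of these correlations include the male TP array and were not taken without it. That array holds the lowest centred value of Pcp2, -0.52, against -0.18 for male vehicle.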

How the data were processed

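RNA pooled from 6 whole brains an array was extracted with Trizol and labelled by 3′ in vitro transcription (labels' protocols). The authors deposited log2 expression values made with RMA, per the submitters' processing notes; the version and detection calls are not given in the sources used here. RMA normalizes between arrays, so values are relative to the rest of each array, and no counts or depths exist: the number of arrays limits the precision. Array medians lay between 5.69 and 5.74. Of 45101 probe sets, 34945 were paired with 1 gene symbol in the platform annotation, 932 with several, 9160 with none, and 64 were array controls. Gene identifiers of 34741 matched RefSeq on GRCm38.p6, and 0 symbols changed. The table of RefSeq promoter windows used here matched 5 of the 10 members.

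All single-gene probe sets were tested together by moderated linear models (limma 3.58.1, R 4.3.3, two-sided, Benjamini-Hochberg), after a check on simulated data. Female TP was compared with vehicle on the 4 female arrays, treatment over both sexes with sex as a covariate on 6 arrays, and the difference of the sexes' effects with 4 groups. Dim means a mean below the 40th percentile, 5.49. Of the members' 22 probe sets 3 were dim, and all were tested. The brightest probe set has the highest mean over 6 arrays. The female arrays of a treatment had values equal in every deposited digit at 190 (TP) and 140 (vehicle) of 45101 probe sets, so neither pair was 1 array deposited again. The members, gene lists and tests were chosen with earlier results of these data known. Named were all members, the first 4 measured genes of each list of other cerebellar genes in the order written, the first 2 of other lists spoken of, sex-linked genes as a check of labels, and the 5 genes most like Pcp2 and the granule lineage mean. Genes in the other lists without a single-gene probe set are not analysed here. Figures were drawn with matplotlib 3.10.9 in Python 3.11.15.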

Additional observations from a re-analysis of the deposited data

Results flagged for a closer look

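For Xist, TP minus vehicle was 0.16 in females and 5.16 between the 2 arrays labelled male, and the female minus the male difference was -5.00 (SE 0.14, limma adjusted p = 1.43e-04). The male value rests on 1 array of each treatment, so this p carries the spread of the female pairs alone, and it compares these libraries. Since the Xist value of the library labelled male TP goes against its label, the difference is not given as an effect of TP. Xist is no member, and it is named because every male TP value of the cerebellar genes comes from the same array.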

How the results depend on the processing

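The count of member probe sets past the threshold was 0 in each TP comparison under the alternatives run for it. For all 3 comparisons these were a gene's brightest probe set or the average of its probe sets, dim probe sets left out, quantile normalization again, median centring, an intensity trend, the replicate block and each female array left out. The comparison over both sexes was also run without each male array, and the female one in the 4-group model. The difference of the sexes' effects could not be fitted without either male array. The replica label does not say that arrays share mice, and same-numbered female arrays deviated together with a correlation of 0.11 over probe sets, so the numbers were not taken as pairs. With the replicate block 0 members passed, and Atoh1 in females had an adjusted p of 0.498. Counts over all probe sets moved more. In females 2 were called, 6 after quantile normalization or median centring, 16 with an intensity trend, 5 with brightest probe sets, 1 without dim ones and 0 with any array left out. Over both sexes 0 were called, 38 with the trend and 2 without either male array. For the difference of the sexes' effects 7 were called, 12 with the trend and 2 with 1 value a gene.

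Of the values without a test, these moved by more than the spread of the female pairs, as did 8 others for a single class. The male Purkinje minus granule lineage difference was -0.064 with averaged probe sets and -0.057 without Calb1. Male minus female was -0.233 (probe set means) and -0.244 (median over genes) for the Purkinje genes, and -0.208 (median centring), -0.258 (vehicle arrays) and -0.207 (TP arrays) for the granule lineage. Leaving out 1 female array gave 0.0073 to 0.077 for the female Purkinje minus granule lineage difference, -0.364 to -0.309 for male minus female in Purkinje genes and -0.243 to -0.223 in granule lineage genes.

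Single genes near 0 changed sign. In females, median centring gave 0.0096 for Calb1, 0.0048 for Car8 and 0.0099 for Cbln1, and the probe set mean gave -0.029 for Neurod1. With 1 array left out, female differences ran from -0.145 to 0.070 for Pcp2, -0.090 to 0.062 for Calb1, -0.092 to 0.054 for Car8, -0.013 to 0.039 for Zic1, -0.012 to 0.076 for Zic2, -0.031 to 0.104 for Neurod1 and -0.071 to 0.043 for Cbln1. Over both sexes, the probe set mean gave -0.064 for Calb1, -0.045 for Car8, 0.047 for Zic1 and -0.024 for Cbln1, quantile normalization -0.0016 for Calb1 and -0.017 for Cbln1, and median centring 0.012 for Zic1 and 0.023 for Neurod1. With 1 array left out, these ran from -0.014 to 0.073 for Calb1, -0.019 to 0.118 for Car8, -0.187 to 0.014 for Barhl1, -0.040 to 0.013 for Zic1, -0.056 to 0.036 for Neurod1 and -0.026 to 0.040 for Cbln1. Atoh1 kept its sign under every alternative run, from -0.496 to -0.226 in females and -0.419 to -0.264 over both sexes. The cause of these shifts was not tested. The values of each class by itself, and the list counts on the male vehicle array by itself, were added after the data were seen.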

Other observations

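Among the lists of other cerebellar genes, all 3 TP arrays lay below all 3 vehicle arrays at 4 of 40 Purkinje, 3 of 60 granule lineage and 1 of 26 other probe sets, near or below the 9.12% of all probe sets. On brightest probe sets this order held for Gli1, Ebf2, Lhx5 and Rgs8, which are named after their values were seen. Gli1, a transcription factor and target of Sonic hedgehog signalling in granule cell precursors, stood at 5.57 and 5.75 with vehicle and 5.46 and 5.29 with TP in females, and at 5.57 and 5.12 in males. It is dim, and its difference over both sexes was -0.34 (SE 0.08, limma adjusted p = 0.301). Ebf2, a transcription factor of a subset of Purkinje cells, had -0.27, the dim Lhx5 had -0.28, and Rgs8, a regulator of G protein signalling, had -0.11 (limma adjusted p = 0.305, 0.315 and 0.552). Some other granule lineage genes, also named after their values were seen, did not share this order and differed in sign over both sexes. Ptch1, the receptor and a target of the pathway, had 0.06, and Ccnd2, a cyclin of precursors, had 0.08. Gli2 had -0.03, Mycn -0.10 and Sfrp1 -0.20. None of these passed.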
